A study of Mus musculus with 4 samples.

Results

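Hippocampal transcripts of 9 homeostatic astrocyte genes were compared between control mice and mice with perioperative neurocognitive disorder (PND). The genes were taken by symbol from the table of counted genes, in which each of Aqp4, Aldh1l1, Slc1a2, Slc1a3, Gja1, Gjb6, S100b, Glul and Kcnj10 has 1 entry, and so they are 9 of 29300 genes. The mice were male, wild-type C57BL/6 and 7 to 8 months old, and the hippocampus was taken on day 1 post-surgery. The 2 control mice (sham) received isoflurane anesthesia and tramadol analgesia. The 2 PND mice (surgery) received the same anesthesia and analgesia plus an open tibial shaft fracture fixed with an intramedullary nail. All 4 libraries therefore come from anesthetized mice, and a mouse without anesthesia was not analysed here. Poly(A) RNA of whole hippocampal tissue was sequenced, so every level is a level in the tissue, and fewer astrocytes and less RNA per astrocyte cannot be told apart. Nothing in the tissue's RNA assigns a read to a cell, and S100b and Glul are also expressed by oligodendrocytes.

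Astrocytes are the glial cells that keep the fluid around neurons in balance. They take up released glutamate and convert it to glutamine, carry away the potassium that firing neurons release, and move water through endfeet that wrap the blood vessels. Gap junctions join them into a network through which ions and small metabolites pass. The genes described here encode parts of this housekeeping machinery, or proteins used to recognize the cell, and differ from the genes of reactive astrocytes such as Gfap, which mark the response to injury.

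The 4 libraries held 15763432 to 18573386 counted reads and 24238 to 25324 detected genes. Scaling factors ran from 0.982 to 1.02, and transcripts of the mitochondrial genome other than its rRNA took 2.53% to 2.82% of the reads in control mice and 4.45% to 4.49% in PND mice. Counts of a mouse pair of 1 group differed by more than sampling noise. Chi-square per degree of freedom was 13.2 in control mice and 8.35 in PND mice. The median SD of a gene between mice of a group was nearly equal, at 0.100 log2 units in control mice and 0.0997 in PND mice. The higher chi-square value in control mice therefore does not show that most genes varied more there. The 9 genes were well covered, from 600 counts (Aldh1l1, first PND mouse) to 44340 counts (Slc1a2, first PND mouse), and all 9 passed the filter on low counts that left 17144 genes for testing. Levels of 1 gene across mice are given as CPM, the count relative to the scaled total of its library.

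Of the 9 genes, 4 differed between the groups at an adjusted p under 0.05, 3 higher and 1 lower in PND mice, and 5 did not pass. Among all genes tested, 25.6% passed this threshold, 12.9% higher and 12.7% lower. Aqp4, Gja1 and Slc1a2 rose and Aldh1l1 fell. Aqp4 alone also passed the 1.5-fold threshold that defines a differentially expressed gene (DEG), against 8.98% of all genes tested, 6.74% higher and 2.24% lower. The groups did not overlap in 6 of the 9 genes, 4 higher and 2 lower in PND mice, as in 65.5% of all genes tested, 33.2% higher and 32.2% lower. The median log2 fold change of PND over control was 0.19 for the 9 genes and 0.01 for all genes tested. Relative to the control mean, the 9 genes had a median log2 level of 0.03 and -0.03 in the individual control mice and of 0.30 and 0.14 in the individual PND mice, so both PND mice lay above both control mice but by unequal amounts.

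**Figure D1:**
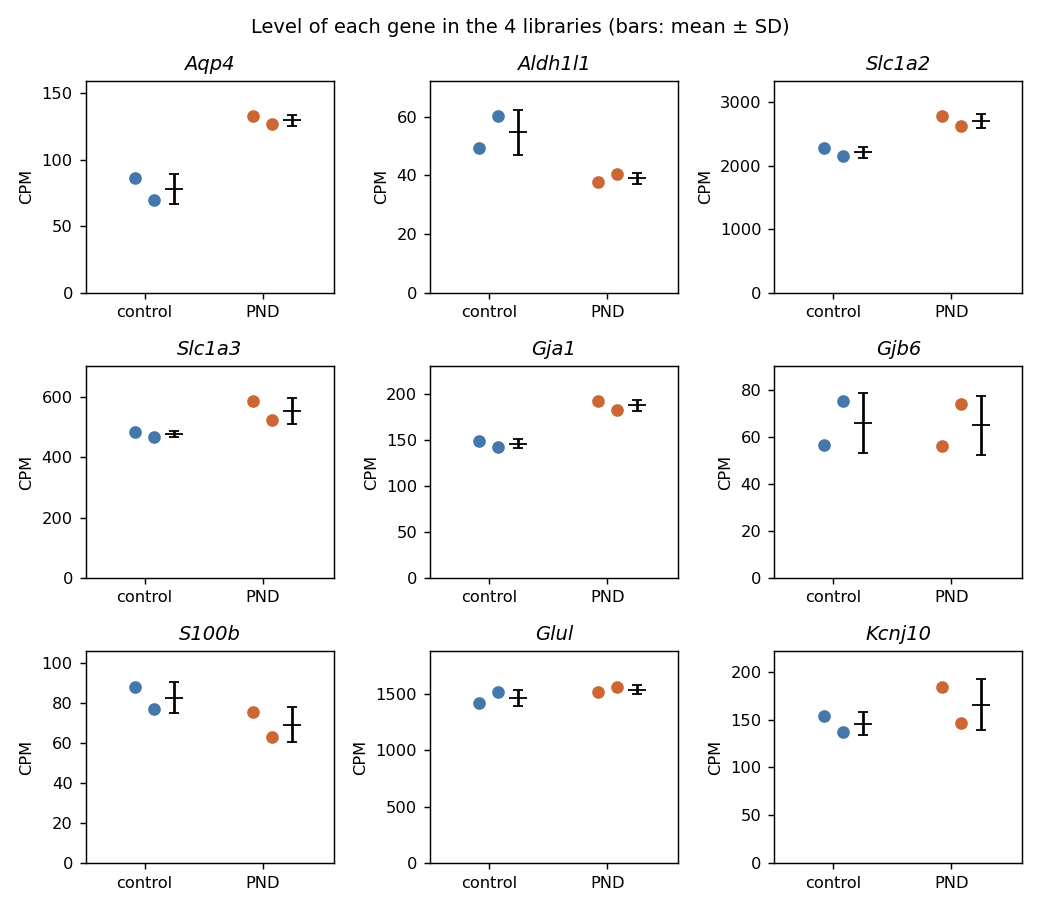
Level of each of the 9 genes in CPM (vertical axis, from 0) in the 2 control mice and the 2 PND mice, 1 point a mouse, with bars for the mean and SD of each group. Both PND mice lie above both control mice for Aqp4, Slc1a2, Slc1a3 and Gja1 and below them for Aldh1l1 and S100b, while the groups overlap for Gjb6, Glul and Kcnj10.

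The sequence before the transcription start was read for the members that passed the test, to set beside each other the promoters of genes that moved in opposite directions. RefSeq (GRCm38.p6) windows were found for 8 of the 9 genes, Aqp4 being the exception. The windows of Gja1 (chr10:56377050-56377299), Slc1a2 (chr2:102706188-102706437) and Aldh1l1 (chr6:90550543-90550792) are the 250 bases before the annotated start, all on the plus strand and read 5′ to 3′. Capitals mark matches on either strand to a TATA box (TATAAA), a GC box (GGGCGG), the short motif of nuclear factor I (TTGGC) or a STAT site (TTCNNNGAA).
Gja1: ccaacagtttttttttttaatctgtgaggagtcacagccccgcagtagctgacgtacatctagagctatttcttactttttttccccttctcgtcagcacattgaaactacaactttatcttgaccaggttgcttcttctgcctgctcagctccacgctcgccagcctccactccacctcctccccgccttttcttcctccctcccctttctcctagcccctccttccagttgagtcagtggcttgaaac
Slc1a2: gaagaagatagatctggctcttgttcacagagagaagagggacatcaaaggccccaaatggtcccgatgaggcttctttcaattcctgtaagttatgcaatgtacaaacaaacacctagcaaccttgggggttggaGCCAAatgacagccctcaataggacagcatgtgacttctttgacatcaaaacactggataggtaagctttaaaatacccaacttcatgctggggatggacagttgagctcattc
Aldh1l1: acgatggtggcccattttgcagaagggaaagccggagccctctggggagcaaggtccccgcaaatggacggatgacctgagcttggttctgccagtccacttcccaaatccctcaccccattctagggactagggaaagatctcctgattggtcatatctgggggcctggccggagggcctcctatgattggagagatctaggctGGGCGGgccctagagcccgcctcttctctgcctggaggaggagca
The Gja1 window, at 50.0% GC, held none of the 4 motifs. The Slc1a2 window, at 44.8% GC, held 1 motif of nuclear factor I, which begins 114 bases before the start. The Aldh1l1 window was richer in GC, at 59.6%, and held 1 GC box that begins 45 bases before the start. Over the 8 genes with a window, the GC box and the nuclear factor I motif were each found in 4, the TATA box and the STAT site each in 1 (both in Slc1a3). Of 32851 RefSeq windows of this length, 32.7% held the GC box, 41.5% the nuclear factor I motif, 12.4% the TATA box and 7.02% the STAT site. These are matches of letters, and binding was not measured. The RefSeq starts of Slc1a2 and Aldh1l1 lie inside the genes' spans in the count table, which also include transcripts that start farther upstream.

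Between genes, levels were compared as CPM per kb of the longest coding transcript. Glul was the most abundant of the 9, at 525 ± 25.2 CPM per kb in control mice and 551 ± 13.3 in PND mice (SD, n = 2 in each group here and below). Slc1a2 followed at 191 ± 7.47 and 233 ± 9.46, and Slc1a3 at 114 ± 2.57 and 133 ± 10.5. The genes of glutamate uptake and of its conversion to glutamine therefore held the top 3 places in both groups, and Glul stood at the 99.6th percentile of all genes tested.
S100b had 55.6 ± 5.23 CPM per kb in control mice and 46.5 ± 5.81 in PND mice. Gja1 had 45.8 ± 1.52 and 59.0 ± 1.96. These neighbours did not overlap in either group and changed places, S100b being above Gja1 in both control mice and below it in both PND mice. Gjb6 (31.4 ± 6.18 CPM per kb in control mice) and Kcnj10 (26.9 ± 2.23) overlapped, and so did Aqp4 (15.5 ± 2.22) and Aldh1l1 (13.1 ± 1.86). In PND mice, Aqp4 (25.7 ± 0.832) and Aldh1l1 (9.34 ± 0.462) no longer overlapped. Aldh1l1, the least abundant of the 9, stood at the 65.5th percentile of all genes tested. These levels depend on the transcript chosen for the length.

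**Figure D2:**
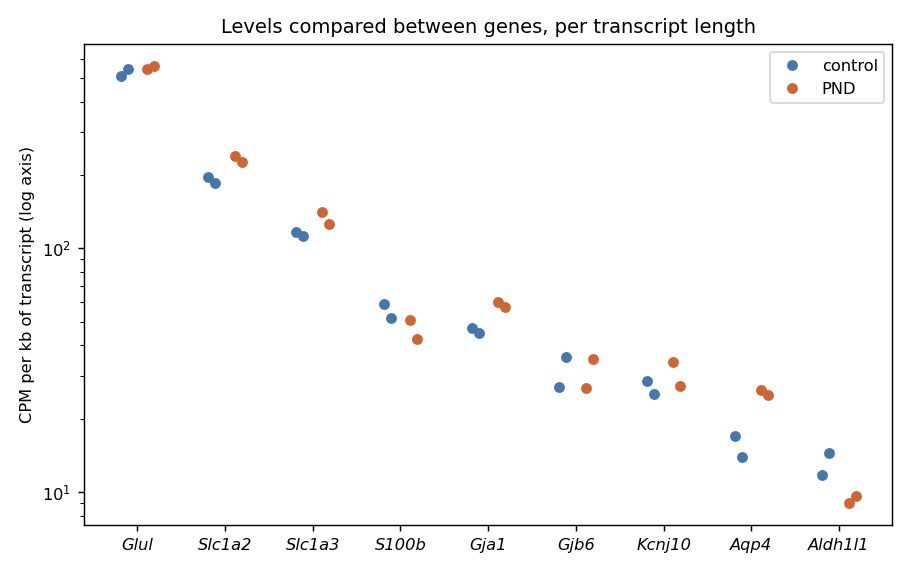
Level of each gene in CPM per kb of transcript (vertical log axis) in the 2 control and the 2 PND mice, 1 point a mouse. Genes stand in the order of the mean level in control mice. Glul, Slc1a2 and Slc1a3 hold the top 3 places in every mouse, and the points of Aqp4 and Aldh1l1 mix in control mice and separate in PND mice.

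Aqp4 encodes the main water channel of the brain, which is packed into the astrocyte membrane facing blood vessels. The gene lies on chromosome 18. Its level was 86.0 and 70.1 CPM in the control mice and 132.8 and 126.9 CPM in the PND mice. Both PND mice thus stood well above both control mice, and the control mice differed more from each other than the PND mice did. The means were 78.1 ± 11.2 and 129.8 ± 4.21 CPM (SD, n = 2), and the log2 fold change was 0.73 (standard error 0.10), or 1.66-fold. By the quasi-likelihood test of edgeR, with adjustment over all genes after Benjamini and Hochberg, the adjusted p was 0.0063. Of the 9 genes, Aqp4 had the largest change in this fit. It stayed a DEG when any 1 mouse was left out, with log2 fold changes from 0.59 to 0.88, but not with the trends of transcript length and GC content removed, where the value was 0.25 (edgeR adjusted p = 0.22) and smaller than those of S100b (-0.35) and Aldh1l1 (-0.33).

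Kcnj10 encodes Kir4.1, the inward rectifier potassium channel through which astrocytes take up extracellular potassium, and lies at mm10 chromosome 1, 172341210 to 172374085, on the plus strand. Its level was 154 and 137 CPM in the control mice and 184 and 147 CPM in the PND mice. The first PND mouse was high, and the second fell between the control mice. The log2 fold change was 0.19 (standard error 0.12, edgeR adjusted p = 0.29). It rested on the first PND mouse, being -0.0041 without it and 0.35 (edgeR adjusted p = 0.024) without the second, and 0.27 and 0.10 without the first and the second control mouse. In CPM per kb, the ratio of Aqp4 to Kcnj10 was 0.597 and 0.547 in controls against 0.770 and 0.925 in PND mice, higher in both PND mice. The difference between the 2 fold changes was not tested, and with the trends of transcript length and GC content removed the log2 fold changes were 0.25 for Aqp4 and 0.15 for Kcnj10.

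Slc1a2 encodes GLT-1, the transporter that clears most of the glutamate released in the hippocampus. The gene spans chromosome 2, 102658659 to 102790784, on the plus strand. Its level was 2276 and 2154 CPM in the control mice and 2780 and 2625 CPM in the PND mice. The groups did not overlap, and the gap between them was wider than the distance between mice of either group. The means were 2215 ± 86.6 and 2703 ± 110 CPM (SD, n = 2), and the log2 fold change was 0.29 (standard error 0.07, edgeR adjusted p = 0.036) or 1.22-fold. The call depended on which mice were included. The adjusted p from edgeR was 0.029 without the first control mouse, 0.087 without the second, 0.15 without the first PND mouse and 0.057 without the second, with log2 fold changes from 0.23 to 0.33 over all 4 omissions. With the trends of transcript length and GC content removed it was 0.04 (edgeR adjusted p = 0.83).

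Slc1a3 encodes GLAST, the second glutamate transporter of astrocytes, and lies on the minus strand of chromosome 15, 8634124 to 8710764. Its level was 484 and 469 CPM in the control mice and 586 and 524 CPM in the PND mice. Both PND mice were higher, but the first more so, and the log2 fold change of 0.22 (standard error 0.07) missed the threshold (edgeR adjusted p = 0.075). It passed in DESeq2 (adjusted p = 0.036), with scaling by library totals only (edgeR adjusted p = 0.039) and without the second PND mouse (0.30, edgeR adjusted p = 0.036). Without the first PND mouse, the log2 fold change was 0.12 (edgeR adjusted p = 0.34). In CPM per kb, the ratio of Slc1a2 to Slc1a3 was 1.69 and 1.65 in controls against 1.70 and 1.80 in PND mice. Both PND mice had the higher ratios, by small amounts, and the difference between the fold changes of the 2 transporters was not tested.

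Glul encodes glutamine synthetase, the enzyme that makes glutamine from the glutamate these transporters bring in, and lies on the plus strand of chromosome 1, 153899944 to 153909723. Its level was 1415 and 1515 CPM in the control mice and 1512 and 1564 CPM in the PND mice. The first PND mouse fell just below the second control mouse, and the log2 fold change was 0.07 (standard error 0.07, edgeR adjusted p = 0.52), or 0.016 to 0.12 when 1 mouse was left out. The ratio of Glul to Slc1a2 in CPM per kb was 2.58 and 2.92 in controls against 2.26 and 2.47 in PND mice, where it was lower in both. Of the 75 nt windows of the Glul transcripts, 5.92% also occur in other genes, among them the pseudogene Glns-ps1, which had 4 to 14 counts a library. The opposite strand of Glul carries Teddm2, whose exons overlap it by 116 nt and which had 31 to 45 counts. Whether the counting used strand is not given in the sources used here, and Glul itself had 24108 to 27692 counts.

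Gja1 encodes connexin 43, the main gap junction protein of astrocytes, and lies at chromosome 10, 56377330 to 56402513. Its level was 149 and 142 CPM in the control mice and 192 and 183 CPM in the PND mice. The groups were clearly apart, and the mice within each group were close. The means were 145.8 ± 4.84 and 187.7 ± 6.22 CPM (SD, n = 2), and the log2 fold change was 0.36 (standard error 0.06, edgeR adjusted p = 0.0088) or 1.29-fold, which is under the fold threshold for a DEG. The call held when any 1 mouse was left out, with edgeR adjusted p values from 0.0086 to 0.039. It ended with the trends of transcript length and GC content removed (0.10, edgeR adjusted p = 0.44).

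Gjb6 encodes connexin 30, the other astrocyte connexin, on the minus strand of chromosome 14, 57123303 to 57133611. Its level was 56.8 and 75.2 CPM in the control mice and 56.1 and 73.9 CPM in the PND mice. The second mouse of each group was high and the first low, so that the difference within groups was far larger than that between them, and the log2 fold change was -0.02 (standard error 0.17, edgeR adjusted p = 0.94). Its sign turned with scaling by totals only (0.03), without the second control mouse (0.19) and without the first PND mouse (0.15). The ratio of Gja1 to Gjb6 in CPM per kb was 1.74 and 1.25 in controls against 2.27 and 1.64 in PND mice, and overlapped between the groups. Markers of choroid plexus and ependyma varied strongly between the libraries. Over 12 such markers, none of them at 0, the sum was 153 and 5500 CPM in controls and 2091 and 3507 CPM in PND mice. It was higher in the second mouse of each group, as Gjb6 was. Most of this sum was Ttr, at 90.9 and 5078 CPM in controls and 1914 and 3255 CPM in PND mice. Not every marker kept this order, and Foxj1 had 19.9 and 15.9 CPM in the first and the second PND mouse. Gjb6 was nearly equal in the first mice of both groups, whereas the sum was not. The part of these markers in the levels of Gjb6 was not tested.

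Aldh1l1 encodes a dehydrogenase of folate metabolism that is used as a general astrocyte marker, and lies at chromosome 6, 90486427 to 90600203. Its level was 49.2 and 60.1 CPM in the control mice and 37.6 and 40.4 CPM in the PND mice. Both PND mice were lower than both control mice. The means were 54.6 ± 7.75 and 39.0 ± 1.93 CPM (SD, n = 2), and the log2 fold change was -0.49 (standard error 0.11, edgeR adjusted p = 0.026) or 0.713-fold, short of the fold threshold for a DEG. The fall rested in part on the second control mouse. Without it the log2 fold change was -0.34 (edgeR adjusted p = 0.084), and without the first control mouse it was -0.63 (edgeR adjusted p = 0.0070), which passed the fold threshold. The call also ended with the trends of transcript length and GC content removed (-0.33, edgeR adjusted p = 0.14). Since Aqp4 rose and Aldh1l1 fell, the ratio of Aqp4 to Aldh1l1 in CPM per kb was 1.45 and 0.964 in controls against 2.92 and 2.60 in PND mice, and the difference between their fold changes was not tested. The exons of Aldh1l1 overlap those of Gm15756 on the opposite strand by 499 nt, and that gene had 0 or 1 count in each library. Reads of Aldh1l1 lost to this overlap, if the counting ignored strand, could not be estimated from the counts.

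S100b encodes a calcium-binding protein found in astrocytes and in oligodendrocytes, and lies on the plus strand of chromosome 10, 76253853 to 76261159. Its level was 88.1 and 77.1 CPM in the control mice and 75.1 and 62.9 CPM in the PND mice. The groups were just apart, the first PND mouse being close to the second control mouse. The log2 fold change was -0.26 (standard error 0.11, edgeR adjusted p = 0.13). Without the first PND mouse it was -0.41 and passed the test (edgeR adjusted p = 0.025), whereas it was -0.13 without the second (edgeR adjusted p = 0.45) and -0.17 without the first control mouse (edgeR adjusted p = 0.38). Over 12 oligodendrocyte markers, none of them at 0, the sum was 6637 and 5721 CPM in control mice and 6610 and 4299 CPM in PND mice. It was lowest in the mouse in which S100b was also lowest. In the first PND mouse the sum was near that of the first control mouse, while S100b lay below both control mice. The part of these markers in the level of S100b was not tested.

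The fold changes of the 9 genes followed the GC content of their transcripts, as those of all genes did. Across the 17120 genes tested with a GC content, Spearman's rho between the log2 fold change and GC content was -0.65. Over the 9 genes it was -0.85, given as a description since the 9 points come from the same 4 libraries. The transcripts of 8 of the 9 genes had a GC content below the median of 49.9% of all genes tested, within a range of 41.4% (Aqp4) to 54.4% (Aldh1l1). When all genes were divided into 8 groups of equal number by GC content, the median log2 fold change fell from 0.60 in the lowest to -0.35 in the highest. Aqp4, with a log2 fold change of 0.73, was in the group with a median of 0.60, and Gja1 (0.36) in one with a median of 0.32. Slc1a2 (0.29) and Slc1a3 (0.22) shared a group whose median was 0.18. S100b (-0.26), Glul (0.07), Gjb6 (-0.02) and Kcnj10 (0.19) fell in a group with a median of 0.03, and Aldh1l1 (-0.49) in one with a median of -0.17. The low GC content of Aqp4 came mainly from its 3′ untranslated region, which takes 3955 of the 5054 nt of the transcript at 38.4% GC, whereas its coding sequence had 51.1% GC.

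**Figure D3:**
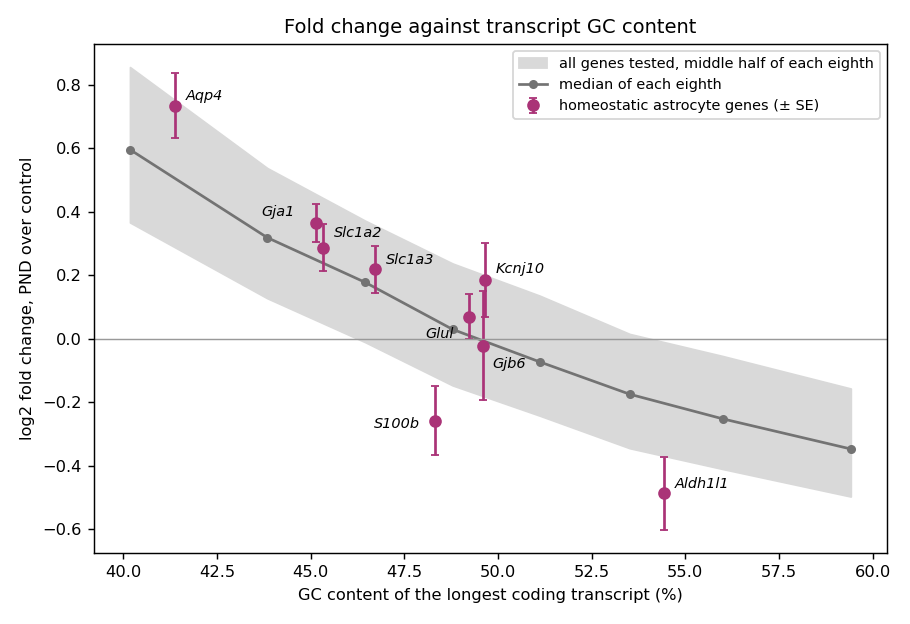
Log2 fold change of PND over control (vertical axis) against the GC content of the longest coding transcript in percent (horizontal axis). Points are the 9 genes with the standard error, and the line and band are the median and the middle 50% of all genes tested in each of 8 groups by GC content. The medians fall from 0.60 to -0.35, S100b and Aldh1l1 lie below the band, and the other 7 genes lie within it.

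A fit in which each library's trend with transcript length and GC content was removed gave smaller differences for the 4 genes whose PND levels both lay above the control levels. Besides the values given above for the genes that had passed, the log2 fold change became 0.04 for Slc1a3 (standard error 0.09, edgeR adjusted p = 0.84), and for S100b it was -0.35 (standard error 0.11, edgeR adjusted p = 0.15). None of the 9 genes passed this edgeR fit, 3 had an unadjusted p under 0.05, and 1.49% of all genes tested passed. With a correction for GC content alone, none of the 9 and 1.67% of all genes passed the edgeR test. The median over the 9 genes was 0.04 in this fit, against -0.03 over all genes tested. Of the genes that passed, 36.7% were higher in PND mice with the correction and 50.4% without it. What gave rise to the trend with GC content was not tested.

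**Figure D4:**
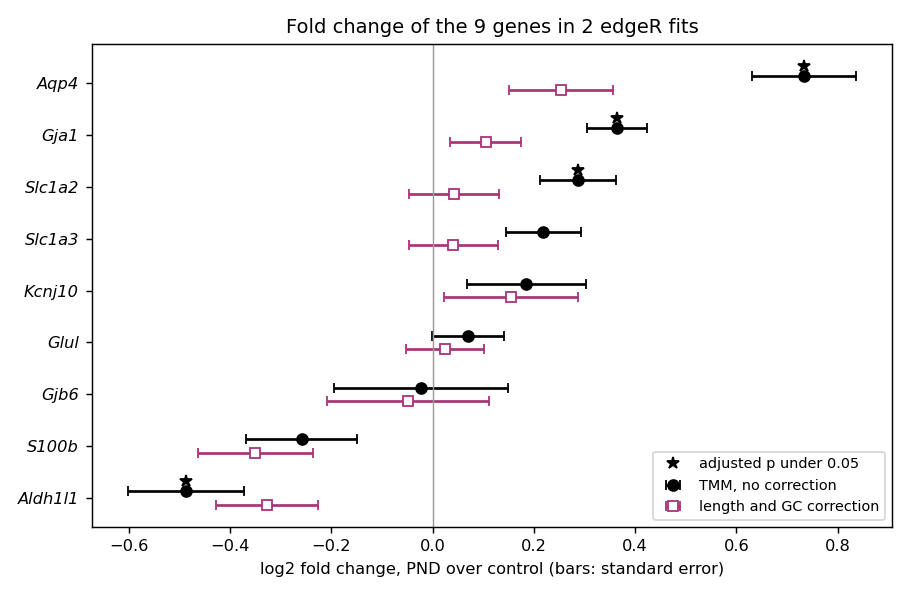
Log2 fold change of PND over control (horizontal axis, bars for the standard error) of each gene in the fit without correction (filled circles) and in the fit with the trends of transcript length and GC content removed (open squares), with stars for an edgeR adjusted p under 0.05. The stars stand at Aqp4, Gja1, Slc1a2 and Aldh1l1 without the correction and at no gene with it, where the values run from -0.35 to 0.25.

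Genes that work with these 9 were counted in 14 other lists, chosen by function or as cell type markers. Of their 179 genes, 176 were tested, and 18 were higher and 18 lower in PND mice, 20.5% together, against 25.6% of all genes tested. Some genes of lists with 5 or fewer calls in 1 direction are named after their values were seen. With the trends of length and GC content removed, 1 of the 176 passed.

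Of 9 genes of the complex that anchors the water channel at the endfoot, 1 rose and 2 fell, with a median log2 fold change of -0.12. Dmd, which encodes dystrophin, rose (0.66, edgeR adjusted p = 0.0060), whereas Agrn, which encodes the matrix protein agrin, fell (-0.40, edgeR adjusted p = 0.0063). Dtna, the dystrobrevin of astrocytes, had a log2 fold change of 0.22 (edgeR adjusted p = 0.056) and Mlc1, a membrane protein of the endfoot, one of -0.15 (edgeR adjusted p = 0.19). The partners of Aqp4 that passed thus moved in both directions. Of 7 other connexins and connexin partners, 1 passed in edgeR and 3 in DESeq2. Tjp1, the scaffold protein ZO-1 that binds connexin 43, rose in the edgeR test (0.49, edgeR adjusted p = 0.0060). Gjc3, a connexin gene of oligodendrocytes, had a log2 fold change of 0.51 (edgeR adjusted p = 0.066).

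Of 14 other genes of glutamate transport and the glutamate-glutamine cycle, 1 rose and 3 fell, with a median log2 fold change of 0.08. Slc1a1, the glutamate transporter of neurons, rose (0.46, edgeR adjusted p = 0.0061). Slc17a7, the vesicular glutamate transporter of excitatory neurons, fell (-0.39, edgeR adjusted p = 0.0099), and so did Got1, an aspartate aminotransferase (-0.29, edgeR adjusted p = 0.016), and Arl6ip5 (-0.37, edgeR adjusted p = 0.012). Of 14 genes of ion and transmitter transport, 3 rose, with a median of 0.07. These were Slc7a11, the cystine-glutamate exchanger (1.27, edgeR adjusted p = 0.0088), Kcnj16, which encodes a partner channel of Kir4.1 (0.59, edgeR adjusted p = 0.018), and the potassium channel gene Kcnk2 (0.35, edgeR adjusted p = 0.037). The level of Slc7a11 was 23.7 ± 0.162 CPM in control mice and 56.9 ± 18.2 CPM in PND mice (SD, n = 2). The sodium pump subunit Atp1b2 (0.07, edgeR adjusted p = 0.42) did not pass.

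Beside Aldh1l1, none of 12 other folate enzymes passed the edgeR test (3 had an unadjusted p under 0.05, and 0 passed in DESeq2), and the lowest adjusted p among the 3 most abundant was that of Mthfd1 (-0.22, adjusted p = 0.066). Beside S100b, 1 of 9 genes passed in a list of 8 other S100 genes and Ager, which encodes the receptor RAGE that S100 proteins bind, namely S100a10 (0.73, edgeR adjusted p = 0.029), while S100a16 (-0.06) and S100a1 (-0.17) did not.

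Of 28 other astrocyte markers, 1 rose and 7 fell, with a median log2 fold change of -0.12, or -0.12 with the trends of length and GC content removed. Aldoc, the aldolase of astrocytes, fell from 1157 ± 139 to 819 ± 6.95 CPM (SD, n = 2; log2 fold change -0.50, edgeR adjusted p = 0.013), and Bmpr1b, a receptor of bone morphogenetic proteins, rose (0.69, edgeR adjusted p = 0.010). The abundant lipoprotein genes Apoe (-0.05, edgeR adjusted p = 0.72) and Clu (-0.11, edgeR adjusted p = 0.44) did not pass. The summed level of these markers was 7756 and 8661 CPM in the control mice and 7050 and 6897 CPM in the PND mice, whereas that of the 9 homeostatic genes was 4759 and 4700 CPM in the control mice and 5556 and 5347 CPM in the PND mice. The 2 sums thus lay in opposite order between the groups, and each sum is led by its most abundant genes. Of 13 tested genes of reactive astrocytes, 10 had a positive and 3 a negative log2 fold change, with a median of 0.28, or 0.40 with the trends of length and GC content removed. Among them 1 rose, Cd44, a receptor for hyaluronan (0.93, edgeR adjusted p = 0.028), at 2.81 ± 0.121 CPM in control mice and 5.38 ± 0.862 CPM in PND mice (SD, n = 2). Gfap, the intermediate filament of astrocytes, had 461 ± 72.7 and 380 ± 4.69 CPM (-0.28, edgeR adjusted p = 0.11), and Vim (0.22, edgeR adjusted p = 0.46) and Serpina3n (-0.20, edgeR adjusted p = 0.086) did not pass either. The PND mice differed from each other in several of these genes. Vim had 59.1 and 93.4 CPM in the first and the second PND mouse, and Osmr, named after its values were seen, 9.16 and 15.3 CPM. The second PND mouse also had the higher sum of endothelial markers, 339 and 472 CPM, and their part in the levels of reactive genes was not tested.

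**Figure D5:**
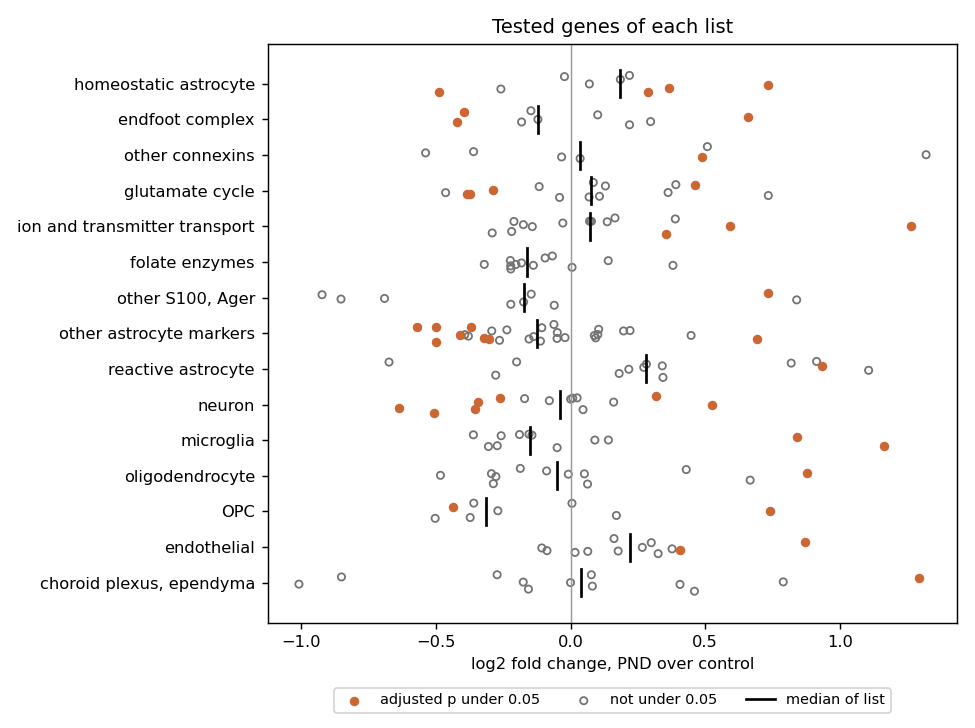
Log2 fold change of PND over control (horizontal axis) of every tested gene of the 9 homeostatic astrocyte genes and of the 14 other lists, with filled points for an edgeR adjusted p under 0.05 and a bar for the median of each list. OPC stands for oligodendrocyte precursor cells. In this fit without correction, the homeostatic genes have a median of 0.19 and the other astrocyte markers one of -0.12. With the trends of length and GC content removed (not shown), the medians are 0.04 and -0.12.

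Markers of the other cells of the hippocampus were counted the same way, and no marker of these lists was at 0. Of 14 neuron markers, 2 rose, Map2 (0.53) and Gad2 (0.32), and 5 fell, Camk2a (-0.26, edgeR adjusted p = 0.040), Eno2 (-0.35), Syp (-0.51), Thy1 (-0.35) and Tubb3 (-0.64), and their summed level was 13248 to 13528 CPM in control mice and 12002 to 12433 CPM in PND mice. Snap25 had a log2 fold change of 0.01 (edgeR adjusted p = 0.95). Of 12 microglia markers, 4 had a positive and 8 a negative log2 fold change, with a median of -0.15. Among them 2 rose, P2ry12 (0.84, edgeR adjusted p = 0.0050, or 0.16 with an edgeR adjusted p of 0.46 when the trends of length and GC content were removed) and Itgam (1.16, edgeR adjusted p = 0.016), while Csf1r (-0.15) did not pass, and the sums were 389 to 407 CPM and 376 to 398 CPM. Of 12 endothelial markers 2 rose, Flt1 (0.41, edgeR adjusted p = 0.024) and the transporter gene Slco1a4 (0.87, edgeR adjusted p = 0.015), and the sums were 326 to 343 CPM and 339 to 472 CPM. Of 12 oligodendrocyte markers 1 rose, Ermn (0.88, edgeR adjusted p = 0.048), and Mbp (-0.29, edgeR adjusted p = 0.29) did not pass. Of 8 precursor markers 1 rose, Tmem100 (0.74, edgeR adjusted p = 0.026), and 1 fell, Cspg4 (-0.44, edgeR adjusted p = 0.026), while Pdgfra (0.01) did not pass, and the sums were 203 to 215 CPM and 186 to 192 CPM. Of 12 markers of choroid plexus and ependyma 1 rose, Enkur (1.30, edgeR adjusted p = 0.018), and Ttr, which encodes the thyroxine carrier of the choroid plexus, ran from 90.9 to 5078 CPM in control mice and from 1914 to 3255 CPM in PND mice, with Kl at -0.27 (edgeR adjusted p = 0.81). Log2 fold changes had a median of -0.04 over the neuron markers, 0.22 over the endothelial, -0.05 over the oligodendrocyte, -0.31 over the precursor and 0.04 over the choroid plexus and ependyma markers. The part of these cell types in the levels of the 9 homeostatic genes was not tested.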

How the data were processed

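Poly(A) RNA of the hippocampus of 2 control and 2 PND mice was read as 150 nt pairs. The authors mapped filtered reads to mm10 with HISAT and deposited the count of reads for each gene and mouse, without normalization. The submitters' processing notes list HISAT2 2.1.0, HTSeq 0.6.0, Bowtie2 2.2.3 and TopHat2, and the use of strand is not given in the sources used here. The table also holds the authors' comparison (mean, fold change, p-values and a mark), which was not used.

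The analysis used edgeR 4.0.16 and limma 3.58.1 in R 4.3.3, after filterByExpr (minimum count 10) and TMM scaling, by the quasi-likelihood F test with Benjamini-Hochberg adjustment over 17144 genes and condition as the only term. A DEG had an adjusted p under 0.05 and a fold change (PND over control) no lower than 1.5 or no higher than 0.67. The fold limits are those of the study, and the p threshold was chosen here. The standard error is the log2 fold change divided by the square root of F. CPM are scaled by TMM. Transcript lengths, GC contents and overlaps are those of GENCODE M21, which holds 29238 of the 29300 gene identifiers. Trends with length and GC content were fitted for each library with mgcv 1.9.3 (basis size 8) and entered as offsets. DESeq2 1.42.0, other scalings and filters, a replicate block and the omission of each mouse were alternatives. The procedure was tested on simulated counts.

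The 9 genes and the lists were chosen with earlier results of these data known. Besides the 9, the genes named are the 3 most abundant tested genes of each functional list and the one with the largest change among those that passed, the 2 most abundant of each list of other cell types, and Gfap, with a few named after their values were seen. Some genes that this rule names are not reported here. The libraries of a group come from separate mice. Each p-value sets a group difference against a variation estimated from these few samples, with information shared across all genes tested. With 2 mice a group, an exact permutation test cannot go below p = 0.333, and no such test was run.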

Additional observations from a re-analysis of the deposited data

How the results depend on the processing

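The 9 genes were refitted under 14 alternatives, which gave 126 values. Of these, 100 kept their direction and their side of the threshold, 14 kept the direction but lost the call, 8 gained a call and 4 turned sign. The sign turned for Gjb6, to 0.025 with library totals only, 0.19 without the second control mouse and 0.15 without the first PND mouse, and for Kcnj10, to -0.0041 without the first PND mouse. On leaving out 1 mouse, Gjb6 ran from -0.23 to 0.19 and Kcnj10 from -0.0041 to 0.35. The direction of Aqp4, Gja1, Slc1a2, Slc1a3, Aldh1l1, S100b and Glul was kept under all 14.

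The number of the 9 genes that passed was 4. It was 0 with the correction for length and GC content, 0 with that for GC content alone, and 2 to 5 on leaving out 1 mouse, 2 being without the second control mouse (Aqp4 and Gja1). DEGs numbered 0 with either correction, 0 with the block and the correction together, and 1 to 2 on leaving out 1 mouse. The median log2 fold change of the 9 genes was 0.041 with the length and GC correction, 0.035 with the GC correction, 0.037 with the block and the correction together, and 0.12 to 0.30 on leaving out 1 mouse. In the other lists, the 18 higher genes became 0 with the length and GC correction, 1 with the GC correction and 14 to 28 on leaving out 1 mouse. The 18 lower genes became 28 with the block, 1 with either correction and 15 to 30 on leaving out 1 mouse. Over all genes tested, 4386 passed, 256 with the length and GC correction, 286 with the GC correction, and 2667 (without the second control mouse) to 4071 on leaving out 1 mouse. Scaling by library totals only gave 2615 higher and 1787 lower, and moved the median of all genes from 0.01 to 0.06.

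The sources used here do not say whether the replicate numbers of the groups mark a shared litter or day, and with 2 pairs their deviations (correlation 0.22 between the first mice of both groups) do not establish a pairing. With the replicate number as a block, 6 of the 9 genes and 5004 of all genes passed, Slc1a3 (edgeR adjusted p = 0.040) and S100b (edgeR adjusted p = 0.029) being added. With the block and the length and GC correction together, 3 of the 9 passed, Aqp4 (0.26, edgeR adjusted p = 0.021), Aldh1l1 (-0.32, edgeR adjusted p = 0.032) and S100b (-0.35, edgeR adjusted p = 0.0089), among 2339 of all genes. A group of 1 mouse, when the other was left out, was assumed to vary like the other group.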
